A study of Mus musculus with 22 samples.

Results

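The genes described here are the nuclear genes for mitochondrial ribosomal proteins, measured in the livers of Cyp2c70 knockout and wild-type mice with and without ursodeoxycholic acid (UDCA). Members were chosen by name: every row of the expression table whose single annotated symbol starts with Mrpl or Mrps followed by a digit. This gave 76 of the 24011 genes tested. The family was picked with results of these data known, so its counts and medians are a description, read against the same values over all genes. Mrpl27 and Mrps18c were not analysed here. Total RNA came from the livers of 22 female mice on the C57BL/6J background, aged 12 weeks, with 1 MoGene 2.0 ST array per mouse. Of the wild-type mice, 5 ate regular chow (the group WT_chow) and 6 ate chow with UDCA (WT_UDCA). The mice labelled KO-CYP2C70 were split in the same way, with 5 on chow (KO_chow) and 6 on chow with UDCA (KO_UDCA). The UDCA chow held 0.1% UDCA, and mice received it for 7 weeks after they had reached 5 weeks. The labels call the arrays biological replicates, and they do not say how the knockout allele was made.

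Mitochondria translate the few messenger RNAs of their own genome, which encode core subunits of the respiratory chain and of ATP synthase. The ribosome that does this has a small subunit, where the message is decoded, and a large subunit, where peptide bonds form. All of its proteins are encoded in the nucleus, made in the cytosol and imported, and assembled on RNA made inside the organelle. Some have counterparts in the bacterial ribosome, and others exist only in mitochondria. Cyp2c70 is the mouse enzyme that makes muricholic acids, hydrophilic bile acids that human bile lacks, and UDCA is a hydrophilic bile acid used in cholestatic liver disease.

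The deposited intensities ran from 1.66 to 10284, with array medians between 28.7 and 31.1. Cyp2c70 itself lay at log2 11.28 to 11.62 in WT_chow, 11.22 to 11.58 in WT_UDCA, 10.52 to 10.83 in KO_chow and 10.27 to 10.73 in KO_UDCA. The genotypes did not overlap, although the signal of this row stayed high in the knockouts, and the sources used here do not say where its probes lie relative to the deleted part. On the first principal component of all genes the 5 KO_chow mice lay between 15.7 and 53.4 and the other 17 mice between -13.1 and -0.66. KO_chow replicates 2 and 5 lay farthest out, so counts and calls that rest on KO_chow are given with and without these 2 mice. All 13 hepatocyte markers were measured. None was at 0 in any group, but no deposited intensity lay below 1.66, so this does not show detection.

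The family was lowest in KO_chow. For each mouse a family level was taken as the mean over the 76 members of the log2 value minus that member's mean over all 22 mice. In KO_chow it was -0.058, -0.077, -0.111, -0.092 and -0.178 (mean -0.103 ± 0.046 SD, n = 5). In WT_chow it was -0.008, -0.029, 0.013, -0.056 and -0.026 (mean -0.021 ± 0.026 SD, n = 5). Every KO_chow mouse thus lay below every other mouse of the study, although the highest KO_chow mouse (-0.058) and the lowest WT_chow mouse (-0.056) all but met. Without replicates 2 and 5 the KO_chow mean was -0.087 ± 0.027 (SD, n = 3). That order held after quantile normalization (-0.072 and -0.054) and after median centring (-0.061 and -0.058) of the arrays. In KO_UDCA the level ran from -0.016 through a median of 0.033 to 0.121 (mean 0.043 ± 0.059 SD, n = 6). In WT_UDCA it ran from 0.032 through a median of 0.063 to 0.085 (mean 0.061 ± 0.018 SD, n = 6). The WT_UDCA mice lay above all WT_chow mice, also after quantile normalization, but not after median centring, where the lowest WT_UDCA mouse was at -0.023 and the highest WT_chow mouse at 0.034. The KO_UDCA mice overlapped both wild-type groups but did not reach the low end of WT_chow (-0.016 against -0.056). At the top they went beyond WT_UDCA (0.121 against 0.085). No test was made of a score over the members.

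**Figure D1:**
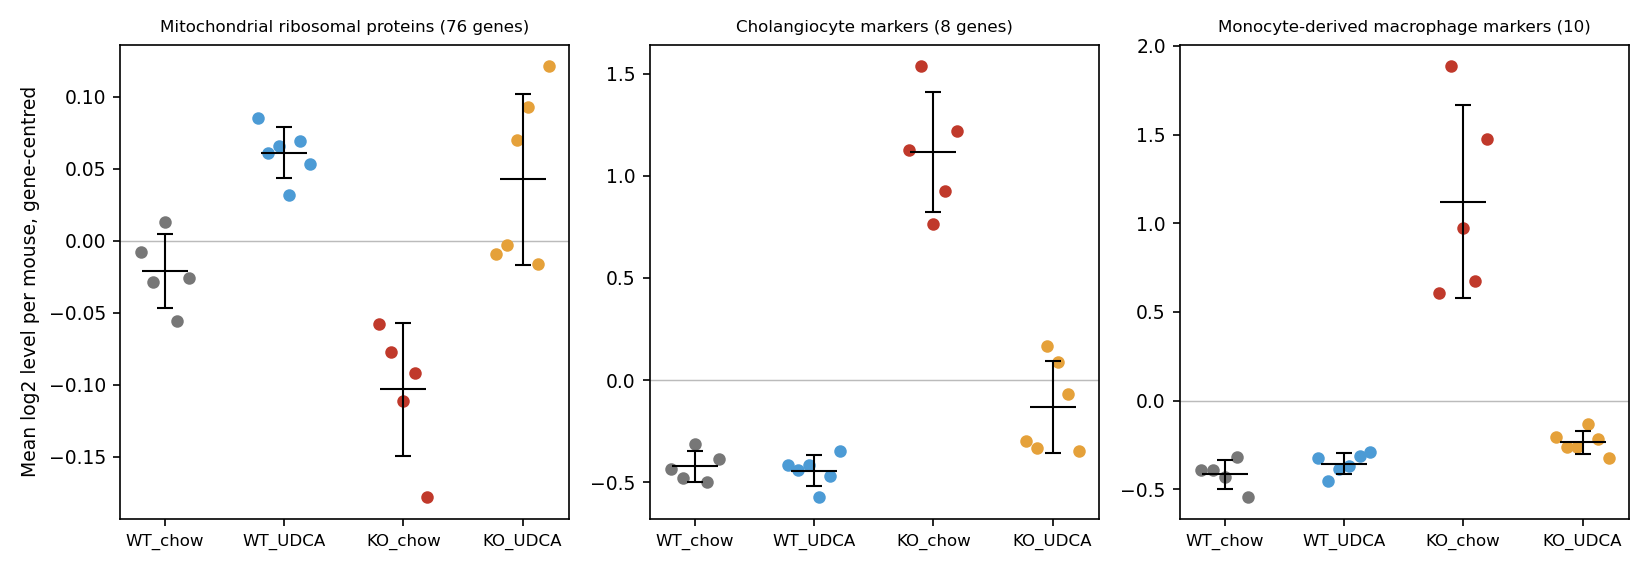
Mean log2 level per mouse, centred per gene, by group, for the 76 mitochondrial ribosomal protein genes (left), 8 cholangiocyte markers (middle) and 10 monocyte-derived macrophage markers (right). Points are mice and bars are the mean ± SD. The 3 scales differ: the family spans -0.178 to 0.121, while the macrophage markers reach 1.885 in KO_chow.

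Member by member, the shifts were small and mostly in 1 direction. In KO_chow vs WT_chow, 57 members had a negative and 19 a positive log2 change, with a median of -0.105 against -0.037 over all genes. In KO_UDCA vs KO_chow, 65 members were positive and 11 negative, with a median of 0.156 against 0.033 over all genes. Both comparisons use the same 5 KO_chow mice, so their values are given side by side and are not independent of each other. In WT_UDCA vs WT_chow, 61 members were positive and 15 negative, with a median of 0.081 against 0.010 over all genes. That comparison uses no knockout mouse, but it shares the WT_chow mice with KO_chow vs WT_chow and is not independent of it. The median standard error (SE) of a member's change lay near these medians, at 0.094 for KO_chow vs WT_chow and 0.090 for the other 2 comparisons. The members are mostly well-expressed genes: 72 of 76 lay among the 12005 genes with a mean log2 value above the median of all genes. Over those brighter genes the median changes were -0.017, 0.021 and -0.001, and the share of positive changes was 47.3%, 53.6% and 49.5%, against 25%, 85.5% and 80.3% of members.

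**Figure D2:**
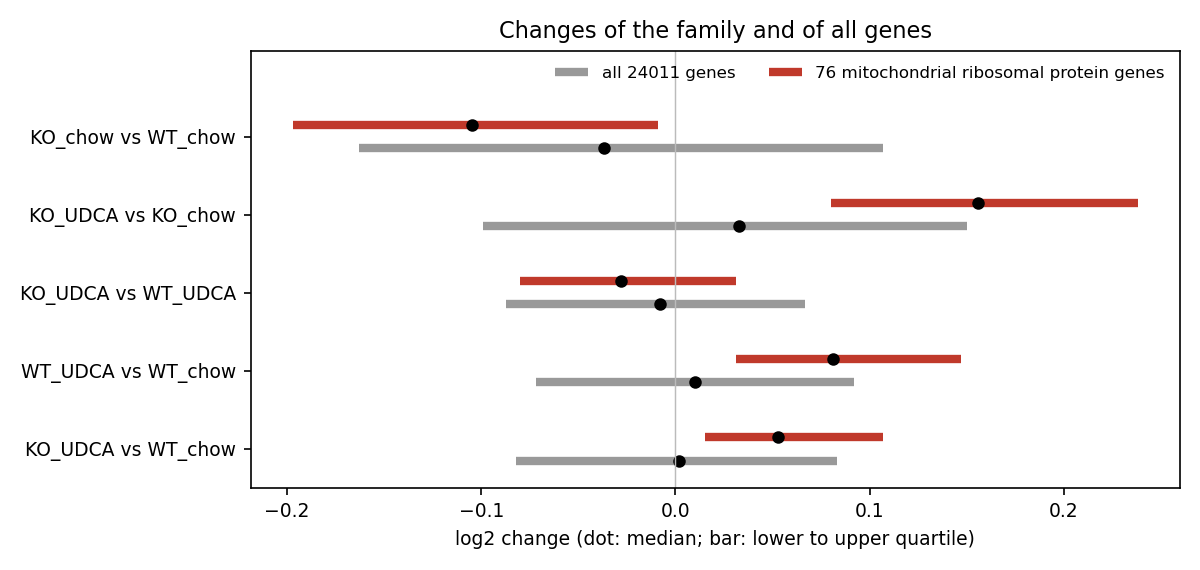
Median (dot) and lower to upper quartile (bar) of the log2 change over the 76 members and over all 24011 genes, in 5 comparisons. In KO_chow vs WT_chow the members' upper quartile was -0.009, and in KO_UDCA vs KO_chow their lower quartile was 0.080.

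Promoter sequences of the members are described next, and whether they relate to the changes was not tested. RefSeq (GRCm38.p6) gave a window of 250 bases before to 50 after the start for 67 of the 76 members, on 16 chromosomes. Members were matched to windows by Entrez gene identifier, and the sources used here give no build for the expression values. The letters of the ETS family core (CCGGAAG, the site type of GABP, also called nuclear respiratory factor 2), read on both strands, stood in 23 of 67 windows (34.3%), against 9.12% of all 27025 windows. Those of YY1 (AAGATGGC), which can overlap the former by AAG, stood in 12 (17.9%, against 2.88%), those of NRF1 (its palindrome, the capitals of the Mrpl9 window printed next) in 3 (4.48%, against 0.977%) and the E-box (CACGTG) in 4 (5.97%, against 7.24%). The windows of the members were also richer in G and C (median 58% against 52.7%) and in CpG (median 21 against 7 per window). A match is a description of letters and not a site.

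Printed here are the windows of 3 members called below in both comparisons with KO_chow. They are Mrpl9, which holds the NRF1 letters, Mrpl18, which holds the ETS letters, and Mrps5, which holds none of the 4. Windows of Mrps9 and Mrps31, called in both comparisons as well, held none of the 4 and are not printed. Matched letters are in capitals. The 3 printed windows lie at chr3:94443086-94443385 (plus strand), chr17:12916042-12916341 (minus strand) and chr2:127587176-127587475 (plus strand).
Mrpl9: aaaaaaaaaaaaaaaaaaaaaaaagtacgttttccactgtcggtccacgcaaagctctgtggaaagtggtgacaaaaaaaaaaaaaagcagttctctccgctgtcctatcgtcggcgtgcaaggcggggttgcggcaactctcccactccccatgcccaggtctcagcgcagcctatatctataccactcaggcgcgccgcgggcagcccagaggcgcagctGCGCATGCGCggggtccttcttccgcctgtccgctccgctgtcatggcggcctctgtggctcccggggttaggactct
Mrpl18: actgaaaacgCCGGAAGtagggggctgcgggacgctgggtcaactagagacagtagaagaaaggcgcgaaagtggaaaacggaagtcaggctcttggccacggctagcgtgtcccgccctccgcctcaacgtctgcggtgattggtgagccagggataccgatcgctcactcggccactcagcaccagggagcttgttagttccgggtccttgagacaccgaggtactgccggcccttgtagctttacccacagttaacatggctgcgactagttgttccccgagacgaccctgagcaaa
Mrps5: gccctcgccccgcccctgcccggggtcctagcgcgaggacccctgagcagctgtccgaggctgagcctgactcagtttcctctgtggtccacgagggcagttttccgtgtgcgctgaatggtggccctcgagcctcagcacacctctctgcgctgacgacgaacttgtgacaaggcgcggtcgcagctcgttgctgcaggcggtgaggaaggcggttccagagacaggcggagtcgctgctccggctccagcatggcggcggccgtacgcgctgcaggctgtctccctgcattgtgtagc

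The first comparison asks what loss of Cyp2c70 did on chow. In the limma fit across all genes, 8 of 76 members (10.5%) had an adjusted p below 0.05 in KO_chow vs WT_chow, where 13.7% of all genes did. At an unadjusted p below 0.05 there were 18 members (23.7%, against 25.5%). By either count the share of members lay near or under that of all genes. By direction, 7 members fell (9.21%, against 6.03% of all genes) and 1 rose (1.32%, against 7.69%). The groups did not overlap for 9 members that were lower (11.8%, against 3.98% of all genes) and for 0 that were higher (0%, against 5.45%). With KO_chow replicates 2 and 5 left out these counts were 9 (11.8%, against 6.13%) and 0 (0%, against 6.57%). The members that fell were Mrps5, Mrps9, Mrps27 and Mrps31 of the small subunit and Mrpl9, Mrpl15 and Mrpl18 of the large subunit. The member that rose was Mrps16.

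Mrps5, a small-subunit protein with a bacterial counterpart at the entrance of the messenger RNA channel, fell the most of the called members. Its log2 intensities in WT_chow were 7.95, 7.84, 7.95, 7.82 and 7.98. In KO_chow they were 7.68, 7.61, 7.41, 7.56 and 7.27. The KO_chow mice all lay below the WT_chow mice, and the log2 change was -0.40 (SE 0.089, 1.32-fold lower, adjusted p = 0.00351, limma). Mrpl15, a large-subunit protein with a bacterial counterpart, was at 7.76, 7.76, 7.83, 7.86 and 7.80 in WT_chow. Its values in KO_chow were 7.74, 7.32, 7.57, 7.50 and 7.04. These groups did not overlap either, but the KO_chow values spread 7.04 to 7.74, with replicate 5 lowest, and the log2 change was -0.37 (SE 0.098, adjusted p = 0.013).

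Mrps27, a mitochondria-specific protein of the pentatricopeptide repeat type that binds RNA, was at 6.36, 6.26, 6.30, 6.30 and 6.50 in WT_chow and at 6.01, 6.13, 6.03, 6.11 and 5.84 in KO_chow. All KO_chow mice lay below all WT_chow mice, with a log2 change of -0.32 (SE 0.091, adjusted p = 0.0201). Mrpl18, whose bacterial relative sits with the small RNA of the large subunit, was at 7.80, 7.58, 7.94, 7.59 and 7.72 in WT_chow and at 7.64, 7.33, 7.29, 7.57 and 7.19 in KO_chow. Its groups overlapped through KO_chow replicate 1, and the log2 change was -0.32 (SE 0.092, adjusted p = 0.0202). Mrpl9, which has a bacterial counterpart at the base of a flexible stalk, ran from 6.67 to 6.90 in WT_chow and from 6.36 to 6.75 in KO_chow, with a log2 change of -0.29 (SE 0.092, adjusted p = 0.0344). For Mrpl9, 3 of the KO_chow mice lay close together at 6.36 to 6.37 and the other 2 within the wild-type range.

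Mrps9, a small-subunit protein with a bacterial counterpart, ran from 6.883 to 7.151 in WT_chow and from 6.556 to 6.875 in KO_chow. Mrps31, which is mitochondria-specific, ran from 7.788 to 7.912 in WT_chow and from 7.446 to 7.757 in KO_chow. For both, the highest KO_chow mouse lay just under the lowest WT_chow mouse, and the log2 changes were -0.26 for Mrps9 (SE 0.081, adjusted p = 0.0347) and -0.25 for Mrps31 (SE 0.085, adjusted p = 0.0492). Mrps16, a small-subunit protein with a bacterial counterpart that is known from a human mitochondrial disease, was at 5.96, 5.48, 6.27, 5.87 and 5.65 in WT_chow. Its KO_chow values were 6.19, 6.41, 6.40, 5.99 and 6.35, which overlap the wild-type values because of WT_chow replicate 3. The log2 change of Mrps16 was 0.42 (SE 0.137, adjusted p = 0.0419), and the adjusted p was above 0.05 after quantile normalization or median centring of the arrays.

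How firm these calls were differed by gene. Mrps5 kept its call in all 31 alternative fits, with log2 changes of at least 0.345 in size and adjusted p of at most 0.0341. Mrpl15 kept it in all 22 fits that left out 1 mouse, but not in the fit of the WT_chow and KO_chow arrays alone (adjusted p = 0.0781), nor without KO_chow replicates 2 and 5 (log2 change -0.20, adjusted p = 0.224). Mrps27 lost its call without WT_chow replicate 5 or KO_chow replicate 5 (adjusted p = 0.0609 to 0.0697), and Mrpl18 when KO_chow replicate 2, 3 or 5 or WT_chow replicate 1 or 3 was left out (0.0509 to 0.0724). Mrpl9 lost it when WT_chow replicate 1, 3 or 5 was left out, or KO_chow replicate 2, 3 or 5 (0.0683 to 0.101). Leaving out WT_chow replicate 1, 4 or 5, or KO_chow replicate 2, 3 or 5, ended the call of Mrps9 (0.0554 to 0.108). For Mrps16 the call ended when KO_chow replicate 2, 3 or 5 or WT_chow replicate 1, 2, 4 or 5 was left out (0.0522 to 0.132). Mrps31 lost it in 16 of the 22 such fits (0.0503 to 0.144), all but those that left out KO_chow replicate 1, 3 or 4, KO_UDCA replicate 2 or 4 or WT_UDCA replicate 3. In the fit of only the WT_chow and KO_chow arrays 2 calls were left, those of Mrps5 and Mrps27. Without KO_chow replicates 2 and 5 only the call of Mrps5 was left among the 8 (1.32% of members lower, against 1.3% of all genes). The median change of the family was then -0.058, against -0.036 over all genes. Of the members 59 were negative and 17 positive, and of all genes 13848 and 10163.

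The second comparison asks what UDCA did in the knockout. In KO_UDCA vs KO_chow, 13 of 76 members (17.1%) were called by limma at an adjusted p below 0.05, where 11.2% of all genes were. At an unadjusted p below 0.05 there were 29 members (38.2%, against 23.9%). All 13 rose, against 5.03% of all genes, and 0 members fell, against 6.22%. The groups did not overlap for 8 members that were higher (10.5%, against 2.62% of all genes) and for 0 that were lower (0%, against 3.27%). When those 2 knockout mice on chow, replicates 2 and 5, were left out, the counts were 9 higher (11.8%, against 4.25%) and 0 lower (0%, against 4.16%). The 13 were Mrps5, Mrps9, Mrps26, Mrps28, Mrps31, Mrps34 and Mrps35 of the small subunit and Mrpl9, Mrpl11, Mrpl12, Mrpl15, Mrpl18 and Mrpl55 of the large subunit. Mrps28 and Mrpl55 fall outside the rule for named genes and were named after their values were seen, to complete the count. Mrps5, Mrps9, Mrps31, Mrpl9, Mrpl15 and Mrpl18 were called in KO_chow vs WT_chow too, and since the same KO_chow mice enter both comparisons, these calls are set side by side and not counted as agreement.

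Mrpl9 rose the most. In KO_chow its log2 intensities were 6.75, 6.37, 6.37, 6.67 and 6.36, and in KO_UDCA they ran from 6.73 through a median of 6.93 to 7.09. Only KO_chow replicate 1 reached into the KO_UDCA range, and the log2 change was 0.43 (SE 0.088, 1.35-fold higher, adjusted p = 0.00234, limma). Mrpl15 ran from 7.72 to 7.92 in KO_UDCA and rose by 0.41 (SE 0.094, adjusted p = 0.00636). Mrps5 ran from 7.63 through a median of 7.98 to 7.99 in KO_UDCA and rose by 0.40 (SE 0.086, adjusted p = 0.0037). For Mrps5, 5 of the 6 KO_UDCA mice stood at 7.87 or above, and replicate 1, at 7.63, lay within the KO_chow range.

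Mrps26, a mitochondria-specific small-subunit protein, was at 6.37, 6.30, 6.35, 6.58 and 6.50 in KO_chow and ran from 6.65 through a median of 6.83 to 6.99 in KO_UDCA. The groups did not overlap, and the log2 change was 0.40 (SE 0.085, adjusted p = 0.00313). In KO_chow vs WT_chow its change was -0.17 (SE 0.089, adjusted p = 0.245), with WT_chow values from 6.44 to 6.78. Mrpl12, the stalk protein that recruits translation factors and also binds the mitochondrial RNA polymerase, was at 8.68, 8.51, 8.42, 8.76 and 8.58 in KO_chow. In KO_UDCA it ran from 8.87 through a median of 8.95 to 9.01, above every KO_chow mouse, with a log2 change of 0.36 (SE 0.080, adjusted p = 0.0049). Mrps35, a mitochondria-specific small-subunit protein, rose by 0.36 (SE 0.084, adjusted p = 0.00633), from 6.42 to 6.91 in KO_chow to 6.90 to 7.18 in KO_UDCA. On chow, the knockout values of Mrpl12 (-0.24, adjusted p = 0.0608) and Mrps35 (-0.26, adjusted p = 0.0549) did not pass the threshold.

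The remaining called members changed by 0.23 to 0.32. Mrpl18 rose by 0.32 (SE 0.088, adjusted p = 0.019) and Mrps9 by 0.29 (SE 0.078, adjusted p = 0.0182). Mrps34, a mitochondria-specific protein known from human mitochondrial disease, rose by 0.26 (SE 0.070, adjusted p = 0.017), from 6.26 to 6.42 in KO_chow to 6.50 to 6.75 in KO_UDCA without overlap. Mrpl11, which forms the base of the stalk that carries Mrpl12, rose by 0.24 (SE 0.076, adjusted p = 0.0431), from 6.15 to 6.38 in KO_chow to 6.40 to 6.64 in KO_UDCA, again without overlap. Mrps31 rose by 0.25 (adjusted p = 0.0491), Mrps28 by 0.25 (adjusted p = 0.0456) and Mrpl55 by 0.23 (adjusted p = 0.0165).

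**Figure D3:**
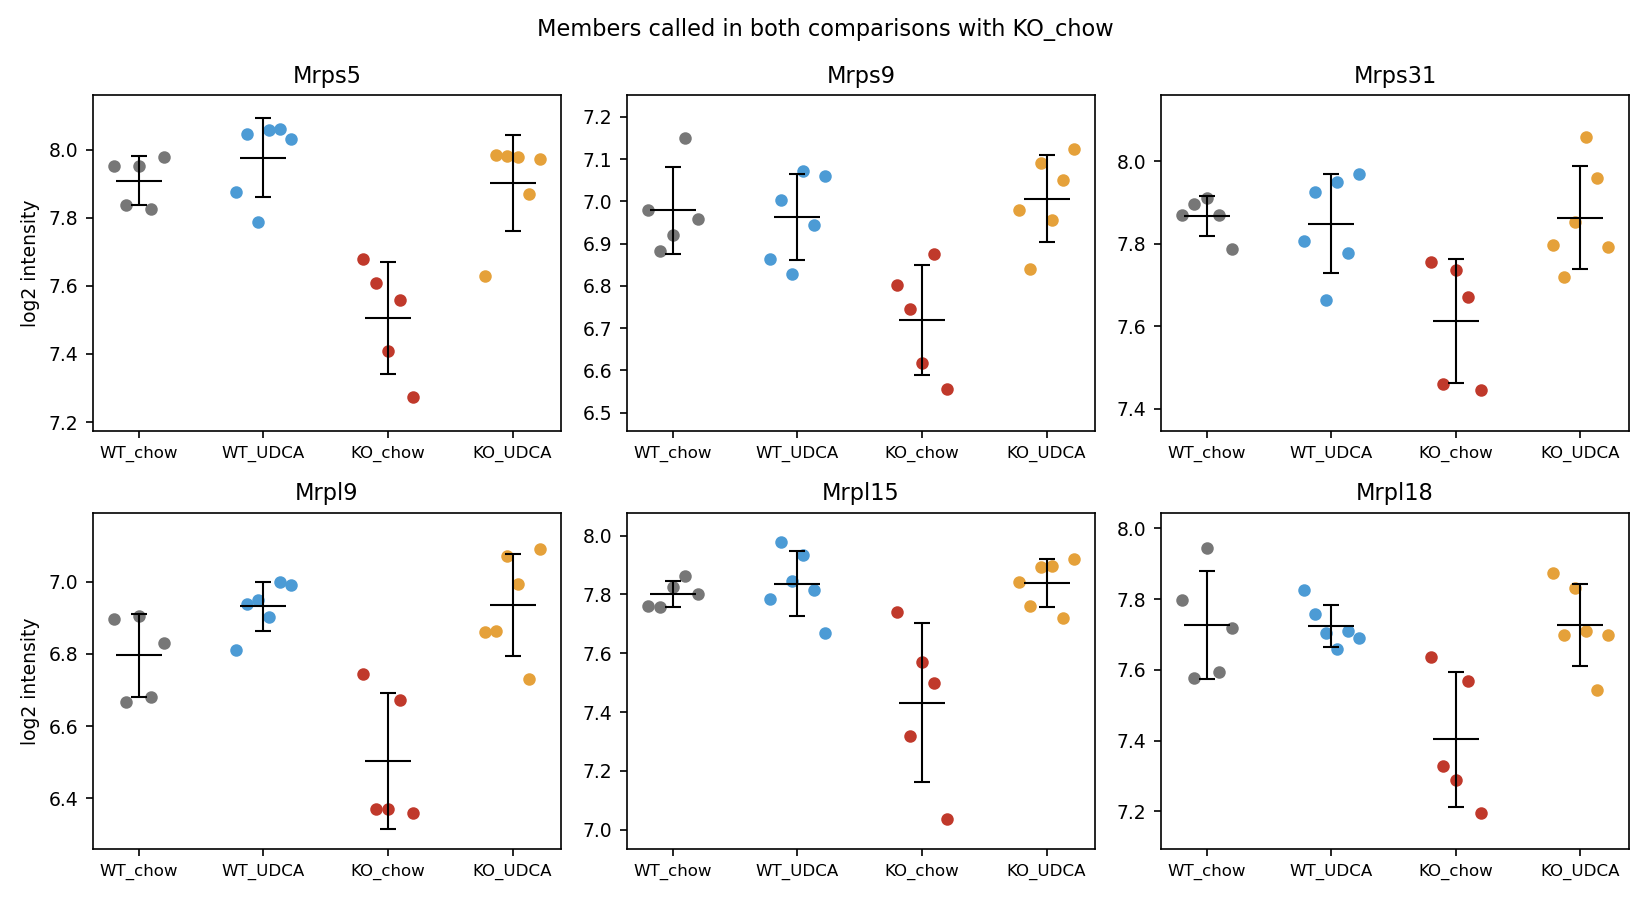
Log2 intensity per mouse of the 6 members called in both KO_chow vs WT_chow and KO_UDCA vs KO_chow, by group. Points are mice and bars are the mean ± SD. In each panel the KO_chow mean is the lowest of the 4 groups, and KO_chow replicate 5 (rightmost red point) is the lowest KO_chow mouse.

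Mrps5 and Mrps26 kept the UDCA call in all 31 alternative fits, with adjusted p of at most 0.0447 and 0.0342. Mrpl9, Mrpl12, Mrpl15, Mrpl55, Mrps34 and Mrps35 kept it in all 22 fits without 1 mouse. All 6 lost it without KO_chow replicates 2 and 5, where the adjusted p was 0.0675 for Mrpl9, 0.0664 for Mrpl12, 0.141 for Mrpl15, 0.0703 for Mrpl55, 0.0853 for Mrps34 and 0.158 for Mrps35. In the fit of the KO_UDCA and KO_chow arrays alone, Mrpl15 (0.0508), Mrpl55 (0.0846), Mrps34 (0.0568) and Mrps35 (0.0509) were also above 0.05. Mrpl18 lost its call without KO_chow replicate 2, 3 or 5 (0.0525 to 0.0743) and Mrps9 without KO_chow replicate 3 or 5 (0.0506 to 0.0684). Mrpl11 lost it when KO_UDCA replicate 1, 3, 4 or 6 was left out, or KO_chow replicate 2, 3 or 5 (0.0713 to 0.133). Mrps28 lost it in 16 of the 22 fits (0.0517 to 0.125), keeping it when WT_chow replicate 5, KO_chow replicate 1 or WT_UDCA replicate 1, 2, 3 or 4 was left out. Mrps31 lost it in 17 (0.0505 to 0.151), keeping it when WT_UDCA replicate 3 or 4, KO_chow replicate 1 or 3 or KO_UDCA replicate 2 was left out. Without KO_chow replicates 2 and 5 the calls of Mrps5 and Mrps26 were the 2 left (2.63% of members higher, against 0.708% of all genes). The median change of the family was then 0.135, against 0.03 over all genes. Of the members 65 were positive and 11 negative, and of all genes 13642 and 10369.

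**Figure D4:**
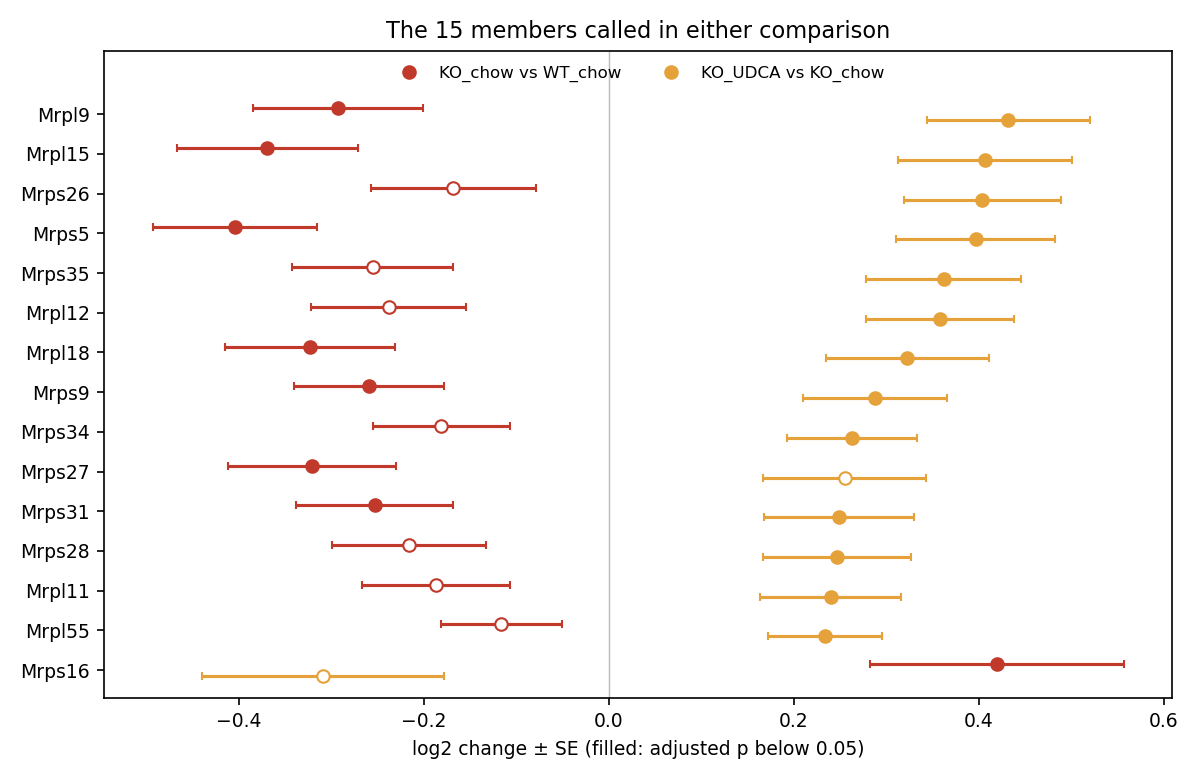
Log2 change ± SE of the 15 members called in either comparison, for KO_chow vs WT_chow (red) and KO_UDCA vs KO_chow (orange). Filled points have an adjusted p below 0.05. The red values run from -0.404 (Mrps5) to 0.42 (Mrps16) and the orange values from -0.309 (Mrps16) to 0.432 (Mrpl9), and both comparisons share the KO_chow mice.

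The called members came from both ribosomal subunits. For all of the class counts below, the shares over all genes were 6.03% lower and 7.69% higher in KO_chow vs WT_chow. In KO_UDCA vs KO_chow they were 5.03% higher and 6.22% lower. Of the 15 small-subunit members with a bacterial counterpart, 2 fell and 1 rose in KO_chow vs WT_chow, and 3 rose in KO_UDCA vs KO_chow. Of the 10 mitochondria-specific small-subunit members, 2 fell and 4 rose, respectively. Of the 29 large-subunit members with a bacterial counterpart, 3 fell and 6 rose. Of the 21 mitochondria-specific large-subunit members, 0 were called in either comparison, where 13.7% and 11.2% of all genes were. The medians of these classes were -0.104, -0.174, -0.116 and -0.032 in KO_chow vs WT_chow, against -0.037 over all genes. In KO_UDCA vs KO_chow they were 0.166, 0.252, 0.176 and 0.117, against 0.033 over all genes. On chow the median of the mitochondria-specific large-subunit members thus did not lie below that of all genes, while those of the other classes did. Leaving out KO_chow replicates 2 and 5 gave medians of -0.088, -0.135, -0.09 and -0.024 in the same order, against -0.036 over all genes. For KO_UDCA vs KO_chow they were then 0.158, 0.208, 0.145 and 0.093, against 0.03. In that fit no call but those of Mrps5 and Mrps26 was left. No test of a difference between the classes was made.

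UDCA in wild-type mice gave the third comparison. In WT_UDCA vs WT_chow, 0 of 76 members were called by limma, where 0% of all genes were. At an unadjusted p below 0.05 there were 8 members (10.5%, against 5.57% of all genes). The 3 with the smallest p all had positive changes: Mrps15, a small-subunit protein with a bacterial counterpart, at 0.21 (SE 0.069, adjusted p = 0.777), Mrps18a at 0.28 (SE 0.096, adjusted p = 0.784) and Mrpl34 at 0.24 (SE 0.087, adjusted p = 0.791). Mrps18a is named for the small subunit, but its protein sits in the large one. Mrpl55 and Mrps25 had WT_UDCA values wholly above those of WT_chow (2.63% of members, against 0.317% of all genes), with log2 changes of 0.15 and 0.22 that did not pass the adjusted threshold (adjusted p = 0.861 and 0.879). The highest WT_chow and lowest WT_UDCA mice nearly met, at 7.183 and 7.188 for Mrpl55 and at 6.465 and 6.467 for Mrps25. These 2 genes were named after their values were seen.

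The next comparisons set the treated knockout beside the wild type. In KO_UDCA vs WT_UDCA, 0 of 76 members were called, where 0.0167% of all genes were, and 1 member had an unadjusted p below 0.05 (1.32%, against 5.45% of all genes). That member was Mrps17, a small-subunit protein with a bacterial counterpart, at 0.19 (SE 0.082, adjusted p = 0.882). The next 2 by p were Mrpl14 at -0.19 (adjusted p = 0.912) and Mrps30, which despite its name sits in the large subunit, at 0.15 (adjusted p = 0.914). The median change of the family was -0.028, against -0.008 over all genes. There were 30 members positive and 46 negative (39.5% positive, against 47.1% of all genes). In KO_UDCA vs WT_chow, 0 of 76 members were called, where 0.025% of all genes were, and 2 had an unadjusted p below 0.05 (2.63%, against 5.62%). These were Mrps26 at 0.24 (SE 0.085, adjusted p = 0.702) and Mrpl58, a peptidyl-tRNA hydrolase that frees stalled chains, at 0.15 (SE 0.066, adjusted p = 0.855). The third by p was Mrps14 at 0.37 (SE 0.189, adjusted p = 0.897). The median was 0.053, with 63 members positive and 13 negative, against 0.002 over all genes.

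Whether UDCA changed single members differently in the 2 genotypes was tested gene by gene as the genotype by diet interaction, the knockout's UDCA change minus the wild type's. The family as a whole was not tested. Its median interaction was 0.079, against 0.016 over all genes, and 68.4% of members were positive, against 52.8% of all genes. No member was called (0 of 76), where 2.67% of all genes were, and 15 had an unadjusted p below 0.05 (19.7%, against 16.3% of all genes). Mrpl12 had the smallest p, with an interaction of 0.38 (SE 0.113, adjusted p = 0.072). Its adjusted p was below 0.05 with a pseudocount of 16 (0.0323), with dim rows filtered (0.0316), with a variance trend and robust prior (0.0435) and without KO_chow replicate 4 (0.0324). Mrps33, a mitochondria-specific small-subunit protein, followed with 0.70 (SE 0.229, adjusted p = 0.108) and Mrps17 with 0.37 (SE 0.122, adjusted p = 0.113).

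Other members named for their role or their spread were not called in either comparison with KO_chow. Mrps12, which lines the decoding centre, changed by -0.10 in KO_chow vs WT_chow (adjusted p = 0.51) and by 0.04 in KO_UDCA vs KO_chow (adjusted p = 0.826). Mrps22, known from human mitochondrial disease, changed by 0.09 (adjusted p = 0.667) and -0.14 (adjusted p = 0.436), opposite in sign to most of the family. Mrpl3, near the peptidyl transferase region, changed by -0.11 (adjusted p = 0.468) and 0.18 (adjusted p = 0.185), and Mrpl44, which has a fold like ribonuclease III, by -0.20 (adjusted p = 0.199) and 0.23 (adjusted p = 0.114). Mrps36 had the largest spread between mice, with a within-group SD of 0.716 on the log2 scale, against a family median of 0.138. Its values ran from 2.71 to 4.56 in WT_chow and from 3.84 to 4.87 in KO_chow, low on the array's scale, and its change of 0.78 (SE 0.413, adjusted p = 0.243) did not pass the test. The Mrps36 protein belongs to the 2-oxoglutarate dehydrogenase complex and not to the ribosome, so this row is a member by name only. Mrpl23 (SD 0.357) and Mrps14 (SD 0.329) were the next most variable.

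The promoter letters were then set beside the calls. Among the 9 members called in KO_UDCA vs KO_chow that had a window, 2 held the ETS letters, 1 those of NRF1 and 0 those of YY1 or the E-box. Among the other 58, 21 held the ETS letters, 2 those of NRF1, 12 those of YY1 and 4 the E-box. Of the windows printed above, the one with the NRF1 letters belongs to Mrpl9, which rose the most. The one with none of the 4 belongs to Mrps5, whose calls held under every alternative. Called members Mrps9 and Mrps31 held none of the 4 either. A relation between the letters and the calls was not tested.

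Many of the members share their start region with a neighbour read the other way. Of the 67 members with a window, 23 (34.3%, against 10.5% of all genes) had a gene on the other strand starting within 1000 bases. Since Mrpl46 and Mrps11 are each other's partner, 42 bases apart, the 23 members make 22 distinct pairs. In KO_UDCA vs KO_chow, 4 of the 23 members and 5 of their partners were called, where 11.2% of all genes were, and in 0 pairs were both called. The called members were Mrps5, Mrps26, Mrpl18 and Mrpl55. The start of Mrps5 lies 332 bases from that of Zfp661, which changed by 0.14 (adjusted p = 0.48) where Mrps5 rose by 0.40. The start of Mrpl18 lies 238 bases from that of Tcp1, a chaperonin subunit, which changed by -0.13 (adjusted p = 0.361) where Mrpl18 rose by 0.32. The partner of Mrps26, 4930473A02Rik, changed by 0.07 (adjusted p = 0.748), and that of Mrpl55, 2610507I01Rik, by 0.35 (adjusted p = 0.229). All 5 called partners rose, and the adjusted p of 3 of their members lay just above the threshold. Ndufb5 of respiratory complex I rose by 0.35 (adjusted p = 0.00689), beside 0.42 for Mrpl47 (adjusted p = 0.0567). Klc4 rose by 0.28 (adjusted p = 0.0473), beside 0.24 for Mrpl2 (adjusted p = 0.056), and Ptcd2 by 0.30 (adjusted p = 0.0414), beside 0.26 for Mrps27 (adjusted p = 0.0614). Cyb5rl rose by 0.37 (adjusted p = 0.0201), beside 0.13 for Mrpl37 (adjusted p = 0.356), and Pnpla7 by 0.64 (adjusted p = 0.000667), beside 0.12 for Mrpl41 (adjusted p = 0.544). Among all of these pairs, Mrps5, Mrps26 and Pnpla7 were still called once KO_chow replicates 2 and 5 had been left out. The pairs with a called partner were named after their values were seen.

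The other genes of mitochondrial translation moved in the same directions where they were called. Over all genes, 6.03% fell and 7.69% rose in KO_chow vs WT_chow (median -0.037), and 5.03% rose and 6.22% fell in KO_UDCA vs KO_chow (median 0.033). Of 26 assembly factors, 6 fell and 0 rose in KO_chow vs WT_chow (median -0.109), and 7 rose and 0 fell in KO_UDCA vs KO_chow (median 0.164). Without KO_chow replicates 2 and 5, 0 of the 26 fell (median -0.109) and 1 rose (median 0.162). Tfb1m, the methyltransferase of the small-subunit RNA, changed by -0.52 (adjusted p = 0.00804) and 0.45 (adjusted p = 0.0192). Mtg1, a GTPase of large-subunit assembly, changed by -0.49 (adjusted p = 0.00393) and 0.36 (adjusted p = 0.031), and Grsf1, an RNA-binding protein of the mitochondrial RNA granules, by -0.33 (adjusted p = 0.0178) and 0.39 (adjusted p = 0.00474). Of 18 translation factors, 5 fell and 0 rose (median -0.220), and 2 rose and 0 fell (median 0.170), which became 0 that fell (median -0.141) and 1 that rose (median 0.076) without those 2 mice. The 1 that rose was Mtif3 (0.40, adjusted p = 0.0205). The initiation factor Mtif3 changed by -0.55 (SE 0.123, adjusted p = 0.00412) and 0.61 (SE 0.118, adjusted p = 0.00148), more in size than any ribosomal protein called here. The release factor Mtrf1 fell by 0.45 (adjusted p = 0.0178) and the recycling factor Gfm2 by 0.39 (adjusted p = 0.0204) on chow, and the insertase Oxa1l rose by 0.26 on UDCA (adjusted p = 0.031).

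Of 19 mitochondrial aminoacyl-tRNA synthetases and related enzymes, 3 fell in KO_chow vs WT_chow (median -0.142) and 5 rose in KO_UDCA vs KO_chow (median 0.144), with 0 in the opposite directions. Those that fell were Gatb (-0.35), Sars2 (-0.32) and Wars2 (-0.29), and among those that rose were Hars2 (0.32), Rars2 (0.29) and Fars2 (0.27). Of the 4 ribosomal subunits with other names, 0 were called in either comparison (medians -0.088 and 0.117). Of 20 genes of mitochondrial transcription and biogenesis, 2 fell and 1 rose on chow (median -0.187), and 4 rose and 1 fell on UDCA (median 0.244). The coactivator Ppargc1b changed by -0.86 (SE 0.180, adjusted p = 0.00218) and 0.88 (SE 0.172, adjusted p = 0.00172), and its relative Ppargc1a by 0.54 on UDCA (adjusted p = 0.034). Tfam, which packages mitochondrial DNA and starts its transcription, fell by 0.39 on chow (adjusted p = 0.013), while Pprc1, the third coactivator of this family, rose by 0.53 (adjusted p = 0.0097). Myc, a transcription factor of ribosome production, fell by 0.89 on UDCA (adjusted p = 0.0402). In these 3 lists Sars2 alone was still called, on chow, when KO_chow replicates 2 and 5 were left out (-0.40, adjusted p = 0.0479). The synthetase medians were then -0.098 and 0.09, and the biogenesis medians -0.064 and 0.107, with Ppargc1b at -0.59 (adjusted p = 0.0547) and 0.60 (adjusted p = 0.0551).

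Of 17 genes that track mitochondrial mass, 4 fell in KO_chow vs WT_chow (median -0.074) and 2 rose in KO_UDCA vs KO_chow (median 0.076). The prohibitins Phb (-0.35) and Phb2 (-0.31) and the import motor subunit Timm44 (-0.32) fell, and Phb2 (0.30) and Timm44 (0.30) rose. Phb2 alone was still called, on chow, when KO_chow replicates 2 and 5 were left out (-0.29, adjusted p = 0.0497), and the medians were -0.026 and 0.079. The proteins of the cytosolic ribosome, made from other genes, were read in the same way. Of 72 genes with names of the cytosolic pattern, 2 rose and 2 fell on chow (median 0.085), and 1 rose and 1 fell on UDCA (median 0.002). Some of these names belong to no structural protein of that ribosome: 6 are S6 kinase genes, 1 is Rps19bp1 and 1 is the retrogene Rps23rg1. Without these 8, a selection made after the values were seen, 1 of 64 rose and 0 fell on chow (median 0.094) and 0 were called on UDCA (median -0.019). Called among the 8 were Rps23rg1 (-0.86 on chow, adjusted p = 0.00603, and 0.62 on UDCA, adjusted p = 0.043), Rps6ka3 (0.66, adjusted p = 0.000392, and -0.59, adjusted p = 0.00102) and, on chow, Rps6kb2 (-0.38, adjusted p = 0.0124). The gene that rose among the 64 was Rps3, with a log2 change of 0.37 (adjusted p = 0.0146). With KO_chow replicates 2 and 5 left out the 64 had 0 calls on chow (median 0.073) and 1 lower on UDCA (median 0.003). All of these lists were set up with earlier results of these data known.

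Markers of other cells moved with the same groups, and by far more. All 8 measured cholangiocyte markers rose in KO_chow vs WT_chow and fell in KO_UDCA vs KO_chow, and their summed intensity ran from 249.4 to 279.7 in WT_chow, 636.6 to 1275 in KO_chow, 274 to 411.8 in KO_UDCA and 236.2 to 288.3 in WT_UDCA. Of 10 markers of monocyte-derived macrophages, 9 rose and then 9 fell, with sums of 519.5 to 602.3, 1161 to 4008, 607.4 to 724.8 and 533.5 to 622.8 in the same order. Of 12 fibroblast and stellate cell markers, 9 rose and then 8 fell, with sums of 1226 to 1357, 2327 to 2906, 1255 to 1885 and 1260 to 1358. No marker of these lists was at 0 in any group, but no deposited intensity lay below 1.66, so this does not show detection. Of 13 hepatocyte markers, 1 fell on chow (Tdo2, -0.33, adjusted p = 0.0418) and 0 were called on UDCA, with medians of -0.060 and 0.123 and sums of 51960 to 55600, 48280 to 53120, 51390 to 55570 and 52660 to 55860. The lowest mean hepatocyte marker levels of KO_chow were those of replicate 5 (-0.239) and replicate 2 (-0.142), the 2 mice farthest out on the first principal component. In bulk liver, fewer cells of a type and less RNA per cell cannot be told apart, and the part of cell composition in the changes of the family was not tested. When those 2 mice were left out, 7 of 8 cholangiocyte markers, 8 of 10 macrophage markers and 9 of 12 fibroblast and stellate cell markers rose on chow, and 7, 8 and 8 of them fell on UDCA. The hepatocyte medians were then -0.003 and 0.043, with 0 of 13 called in either comparison.

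Of 11 cell cycle genes, 10 rose in KO_chow vs WT_chow and 7 fell in KO_UDCA vs KO_chow. Of 9 Kupffer cell markers, 5 fell and 1 rose, then 5 rose and 1 fell, with sums of 1827 to 2113 in WT_chow, 1529 to 1649 in KO_chow, 1594 to 2533 in KO_UDCA and 1532 to 2274 in WT_UDCA. Of 8 neutrophil markers, 5 rose and then 4 fell. Of 8 endothelial markers, 1 rose and 1 fell, then 2 rose, and of 9 T, NK and B cell markers 1 rose in each comparison. None of the 3 erythroid markers measured was called (0 of 3 in each comparison). With KO_chow replicates 2 and 5 left out, 4 cell cycle genes rose and 2 fell, 4 Kupffer cell markers fell and 1 rose and then 4 rose and 1 fell, and 1 neutrophil marker rose and 0 fell. No endothelial, lymphocyte or erythroid marker was then called. In the 3 comparisons without KO_chow mice, no member of the family was called, and of the cholangiocyte, macrophage and fibroblast markers 0 were called either.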

How the data were processed

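Total RNA from 22 mouse livers was hybridised to 1 array each. The values were deposited as unlogged intensity after RMA with a probe-level model, per the labels. RMA is named in the submitters' processing notes with no version, and the sources used here give no genome build. Of 24973 rows, 24015 had 1 symbol in the platform annotation. The other 958, with no symbol or more than 1, entered no result. Of the rows with 1 symbol, 23922 were matched to RefSeq GRCm38.p6, which changed 0 symbols. Where a symbol had several rows (4 symbols), the brightest by mean log2 value stood for it, which gave 24011 genes.

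Intensities were taken to log2 with no pseudocount and no filter on dim rows. The linear model, with 1 mean for each group and no covariates, took in all 22 arrays (limma 3.58.1, R 4.3.3). P-values are two-sided with Benjamini-Hochberg adjustment over all 24011 genes, called at an adjusted p below 0.05. Each sets a difference between groups against the spread between mice, as limma estimates it over all groups. The number of arrays limits the precision. Alternatives were a fit of only the groups compared, quantile normalization, median centring, a pseudocount of 16, a filter on dim rows, array weights, a variance trend with a robust prior, the order of title numbers (1 to 15, 16 to 22) as a block, and leaving out KO_chow replicates 2 and 5 or each array in turn. For the role classes, gene lists, pairs and overlaps, leaving out KO_chow replicates 2 and 5 was added after seeing the data. Replicates were numbered in the order of the records and pair nothing.

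The members and the gene lists were chosen with earlier results of these data known. Named with values were up to 10 called members per direction in the 2 comparisons with KO_chow, up to 5 in the others, the 3 with the smallest p where fewer than 3 were called, the 3 with the largest within-group SD, Mrpl3, Mrpl11, Mrpl12, Mrpl44, Mrpl58, Mrps12, Mrps18a, Mrps22, Mrps30, Mrps34 and Mrps36 whatever their values, and up to 3 called genes per list and comparison. Promoter windows and start positions came from RefSeq.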

Additional observations from a re-analysis of the deposited data

Results flagged for a closer look

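In 4 of the 116 group values checked (the named members and the family level in each group), 1 mouse lay far from the rest of its group, where chance gives about 1 in 20. Mrps22 was at log2 6.388 in WT_chow replicate 1, against 6.042 to 6.13 in the other WT_chow mice. Mrps33 was at 5.932 in KO_chow replicate 4, against 5.144 to 5.371, and without that mouse its interaction was 0.826 in place of 0.696 and passed the threshold (adjusted p = 0.0274, limma). Mrpl3 was at 7.282 in KO_UDCA replicate 1, against 7.565 to 7.721. Mrps5 was at 7.629 in the same mouse, against 7.87 to 7.985, and its calls did not depend on that mouse.

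For Mrpl12 the knockout's mean lay below the wild type's on chow and above it on UDCA, though neither difference was called. The log2 changes were -0.238 on chow (adjusted p = 0.0608, limma) and 0.144 on UDCA (adjusted p = 0.925, limma). Every KO_chow mouse lay below the WT_chow mean and every KO_UDCA mouse above the WT_UDCA mean. The genotypes overlapped on both diets, on UDCA with 8.867 to 9.008 in KO_UDCA and 8.632 to 8.96 in WT_UDCA. The test of the difference between the diets, the genotype by diet interaction, gave 0.382 (SE 0.113, unadjusted p = 0.00259, adjusted p = 0.072, limma), which did not pass the threshold.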

How the results depend on the processing

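No called result reversed. For KO_chow vs WT_chow the count of called members, 8, became 2 with only the groups compared, 13 with dim rows filtered, 5 with array weights and 1 without KO_chow replicates 2 and 5. It ran from 2 to 11 when 1 mouse was left out: 3 without WT_chow replicate 1, 5 without WT_chow replicate 4, 3 without WT_chow replicate 5, 3 without KO_chow replicate 2, 4 without KO_chow replicate 3 and 2 without KO_chow replicate 5. For KO_UDCA vs KO_chow the 13 became 4 with only the groups compared and 2 without KO_chow replicates 2 and 5, and ran from 8 (without KO_chow replicate 5) to 16. The interaction count of 0 became 1 with a pseudocount of 16, 1 with dim rows filtered and 1 with a variance trend and robust prior. It ran from 0 to 2, with 1 without KO_chow replicate 1 and 2 without KO_chow replicate 4. The causes of these shifts in the counts were not tested. The counts of 0 in the other 3 comparisons stayed 0 in every alternative.

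The family's median in KO_chow vs WT_chow was -0.058 without KO_chow replicates 2 and 5, against -0.036 over all genes. Leaving out 1 mouse gave medians of -0.11 to -0.074 there, 0.129 to 0.175 for KO_UDCA vs KO_chow, -0.047 to -0.014 for KO_UDCA vs WT_UDCA, 0.074 to 0.098 for WT_UDCA vs WT_chow and 0.039 to 0.075 for KO_UDCA vs WT_chow. Of the 21 calls of single members, 3 held in all 31 alternatives and 10 in all 22 fits without 1 mouse. No paired analysis was possible because the titles carry 1 running number per sample, so the groups share no replicate numbers. With 5 or 6 arrays per group the smallest change called among members was 0.234.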
